A study of Bos indicus x Bos taurus with 45 samples.

Results

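Skeletal muscle of bovine fetuses with large offspring syndrome (LOS), a fetal overgrowth condition of ruminants, was compared with skeletal muscle of control fetuses for the abundance of mature microRNAs (miRNAs). Members were every library of the muscle count table, which holds 8 of the 45 libraries of the series, and every miRNA that table lists, which is 439 of 603 different names in the series. The 4 control fetuses were conceived by artificial insemination and are labelled healthy, and the 4 LOS fetuses came from assisted reproduction (ART). All 8 were Bos indicus x Bos taurus crosses taken at about day 105 of gestation. Conception method and overgrowth differ together between these groups, so their shares in any difference cannot be told apart here. The labels do not say which muscle was sampled, and they give no dam, sire or sex for the muscle libraries. Tongue libraries of the same numbers, used below for comparison, are labelled female.

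A miRNA is cut as a short duplex from a hairpin precursor, and as a rule 1 strand of the duplex, the guide, is kept in the silencing complex while the other, the passenger, is degraded. Names ending in 5p or 3p give the arm of the hairpin. The loaded miRNA pairs through its seed, near its 5′ end, with messenger RNAs and lowers their translation and stability. In skeletal muscle the myomiRs (miR-1, the miR-133 and miR-208 families, miR-206 and miR-499) are made mainly in muscle cells, and a wider set of miRNAs tunes myoblast proliferation and differentiation. Several growth-linked imprinted loci, among them DLK1-DIO3, GNAS and IGF2, also hold miRNA genes.

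The libraries held 5321105 to 5878392 reads on listed miRNAs in controls and 4744968 to 6456252 in LOS. All values below are CPM, the reads of a miRNA relative to all listed reads of its library, scaled by TMM factors that lay between 0.950 and 1.03. The 10 most abundant miRNAs took 61.1% to 65.0% of the reads of a library. No library was a copy of another of its group: same-group pairs differed by a chi-square of 55.3 to 444 per degree of freedom. Of the 6 miRNAs taken as defining skeletal muscle all were listed, and their summed level was 19064 to 22131 CPM in controls and 18385 to 21930 CPM in LOS. Defining miRNAs of other cell types were also present. The sums for controls and LOS were 33202 to 40886 and 36212 to 47751 CPM for red cell precursors, 8687 to 9672 and 9462 to 12913 CPM for endothelium, and 15427 to 17982 and 13202 to 17191 CPM for fibroblasts. The red cell sum was almost all miR-486, at 181366 to 258472 reads per library. The same libraries held 345 to 835 reads of miR-451 and 28 to 79 of miR-144, so that sum does not measure red cells. The neuronal miR-124 and miR-219 were not listed, and the hepatocyte marker miR-122 stood at 1.66 to 30.2 CPM over the 8 libraries. In such bulk samples, fewer cells of a type and less miRNA per cell cannot be told apart.

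Single libraries stood apart for some miRNAs. LOS 3 had the fewest reads and the highest miR-26a, and LOS 2 was the highest library for several entries with temporary names. Control 2 was the highest library for miR-338, miR-182, miR-183, miR-9 and miR-215. In a principal component analysis of log2 CPM the first component held 30.1% of the variance and the second 22.2%. On the first component the groups overlapped, at -3.43 to 0.662 in controls and -4.84 to 6.13 in LOS. Scores on the second component ran from 1.20 to 3.69 in controls and from -5.53 to -0.0396 in LOS, with no overlap. On the third (17.6%) the groups overlapped again.

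Of the 439 miRNAs, 208 were higher and 231 lower in LOS, with a median log2 difference (LOS minus control throughout) of -0.01. TMM scaling itself centres most miRNAs near 0, and the median was -0.04 with library totals alone. Differences were small: the median size was 0.15 on the log2 scale against a median standard error (SE) of 0.148, and 9 miRNAs differed by more than 1 log2 unit in either direction. By edgeR's quasi-likelihood test with Benjamini-Hochberg adjustment over the 439, 3 miRNAs (0.683%) passed an adjusted p of 0.05. miR-296-3p and miR-665 rose in LOS (0.456% of the miRNAs) and miR-125b fell (0.228%). At an unadjusted p under 0.05 there were 57 miRNAs (13%), of which 31 were higher (7.06%) and 26 lower (5.92%). The 4 LOS fetuses lay wholly above the 4 controls for 16 miRNAs (3.64%) and wholly below them for 23 (5.24%), together 39 (8.88%).

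**Figure D1:**
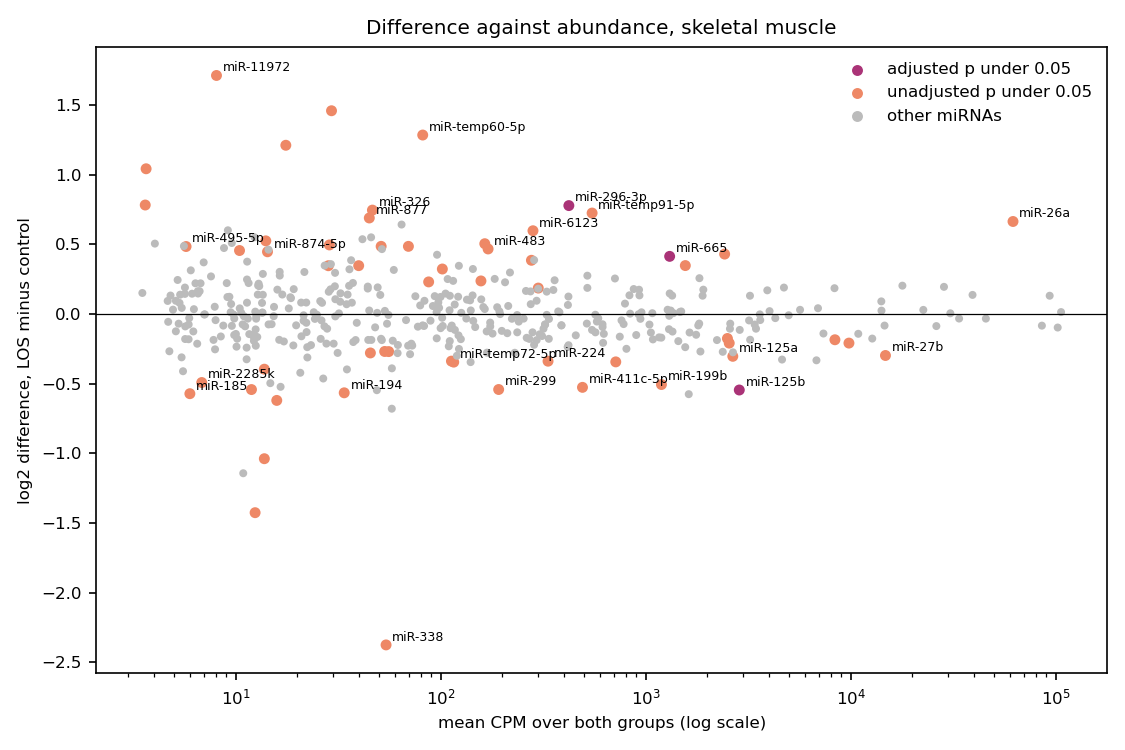
Each point is 1 of the 439 miRNAs, with mean CPM over both groups on a log scale (x axis) and the log2 difference LOS minus control (y axis). The 3 miRNAs past the adjusted threshold had mean levels between those of miR-296-3p and miR-125b, with differences of -0.55, 0.41 and 0.78, and the widest differences, such as -2.37 for miR-338, sit among miRNAs of low abundance.

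The 3 calls stood just inside the threshold, each at an adjusted p of 0.0496 by edgeR's quasi-likelihood test. The same 3 were called with RLE size factors, with a floor of 10 mean CPM and without the 3 most abundant miRNAs, and DESeq2 called 17, these 3 among them. None passed with library totals alone (lowest adjusted p 0.0888), with the older variance estimate of edgeR (0.0526) or with limma-voom (0.0740). That older estimate is the default of the edgeR version used, so the 3 calls depend on a setting other than the default. Without LOS 3 only miR-296-3p passed (0.0493), and without any other library none did. In all 19 alternatives each of the 3 kept its sign. The other 14 calls of DESeq2, 8 higher and 6 lower, were miR-26a, miR-326, miR-483, miR-6123, miR-877, miR-temp9-3p, miR-temp60-5p and miR-temp91-5p above 0 and miR-25, miR-27b, miR-194, miR-199b, miR-299 and miR-338 below 0.

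miR-125b, a member of the widely expressed miR-125 family that is known to hold back myoblast differentiation, was the miRNA that fell. It stood at 3490.15, 3103, 3147 and 3853 CPM in controls 1 to 4 and at 2637, 2225, 2216 and 2236 CPM in LOS 1 to 4. Every LOS fetus was below every control, with LOS 1 the nearest to them. The means were 3398 ± 349 CPM (SD, n = 4) and 2329 ± 206 CPM (n = 4), and the control mean was 1.46 times the LOS mean by the fit (log2 -0.55 ± 0.10 SE, adjusted p 0.0496 by edgeR). Across all alternatives the difference lay between -0.59 and -0.47.

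The close relatives of miR-125b were also lower but did not pass. miR-125a, which shares its seed, read 3294, 2635, 2941 and 2894 CPM in controls and 2607, 2076, 2473 and 2376 CPM in LOS. All 4 LOS values lay below the controls, by a narrow gap between LOS 1 and control 2 (log2 -0.30 ± 0.10, adjusted p 0.236 by edgeR). miR-99a-5p, miR-99b and miR-100, whose genes lie beside those of miR-125 and let-7 members, differed by -0.24 ± 0.11, -0.33 ± 0.16 and -0.33 ± 0.17. Of the 10 listed entries of the miR-99, miR-100 and miR-125 families, 6 were lower and 4 higher, 1 was called, and the median was -0.16 against -0.01 over all miRNAs. The families together took 2.18% of reads in controls and 1.71% in LOS.

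The passenger strands of miR-125b were not lower in LOS. miR-125b-1-3p stood at 91.2, 81.8, 76.7 and 76.9 CPM in controls and at 85.0, 81.9, 158 and 117 CPM in LOS. LOS 3 and LOS 4 were above every control and the other two were among them (log2 0.43 ± 0.20, adjusted p 0.383 by edgeR). miR-125b-2-3p stood at 628, 651, 691 and 614 CPM in controls and at 670, 606, 890 and 918 CPM in LOS, with the same pair of libraries highest (0.25 ± 0.14, adjusted p 0.414). The guide was 37.9 to 50.04 times as abundant as miR-125b-1-3p in controls and 14.0 to 31.0 times in LOS, and 4.56 to 6.28 against 2.44 to 3.93 times as abundant as miR-125b-2-3p. Neither ratio overlapped between groups, and neither was tested, because the guide is shared by both precursors. The 2 ratios also hold the same guide, whose own groups did not overlap, so they are not separate observations. Of the 88 precursors whose arm ratio was tested, 11 (12.5%) had groups that did not overlap.

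miR-296-3p, from the imprinted GNAS region, rose. It stood at 301, 341, 306 and 295 CPM in controls and at 479, 443, 698 and 513 CPM in LOS. The controls were close together, every LOS fetus was above them, and LOS 3 was the highest. The means were 311 ± 20.9 CPM (SD, n = 4) and 533 ± 114 CPM (n = 4), a 1.71-fold difference (log2 0.78 ± 0.14, adjusted p 0.0496 by edgeR), with a range of 0.62 to 0.86 over the alternatives. The other arm of the same hairpin, miR-296-5p, stood at 24.3, 35.1, 27.3 and 30.6 CPM in controls and 32.2, 23.6, 43.9 and 28.1 CPM in LOS. Its groups overlapped (0.11 ± 0.20, adjusted p 0.827).

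miR-665, from the part of DLK1-DIO3 near RTL1, rose by less but with tight groups. Controls stood at 1157, 1144, 1024 and 1168 CPM and LOS at 1422, 1564, 1517 and 1481 CPM. The groups were well apart, with control 3 the lowest value. The means were 1123 ± 67.1 CPM (SD, n = 4) and 1496 ± 59.6 CPM (n = 4), a 1.33-fold difference (log2 0.41 ± 0.08, adjusted p 0.0496 by edgeR), with a range of 0.37 to 0.46 over the alternatives. The other arm, miR-665-5p, stood at 18.9 to 23.0 CPM in controls and 20.0 to 22.7 CPM in LOS (-0.01 ± 0.12, adjusted p 0.984).

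**Figure D2:**
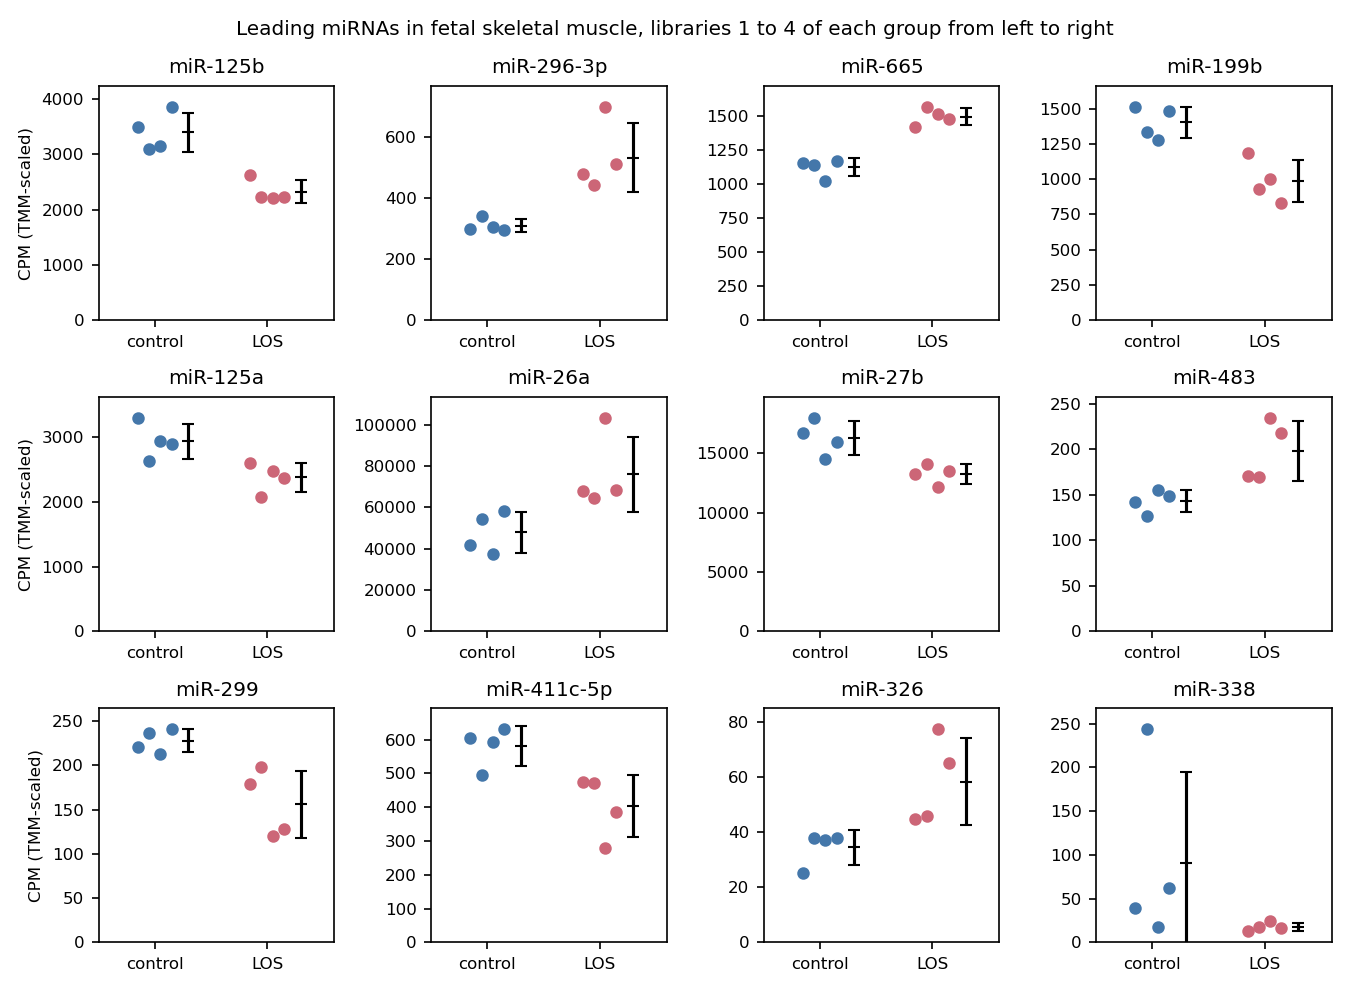
Points are the CPM of single fetuses (y axes, from 0), controls and LOS 1 to 4 from left to right in each group, for 12 of the leading miRNAs, and bars give the mean and SD. Controls and LOS do not overlap in 11 panels. The panels were picked among miRNAs with the lowest p, so this count carries no test. Leading miRNAs without a panel include some whose groups overlap, such as miR-11972. Over all miRNAs the groups do not overlap for 39 of 439 (8.88%). In the panel of miR-338, control 2 at 244 CPM sits far above the other libraries. The lower SD bar of the controls there runs below 0 and is cut at the axis.

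miR-665 was alone among its neighbours. DLK1-DIO3 is the largest imprinted miRNA cluster of mammals, with its miRNAs expressed from the maternal chromosome. Of the 14 listed entries of its upstream part, 6 were higher and 8 lower, with miR-665 the 1 call (median -0.01), and no other entry reached an unadjusted p under 0.05. miR-127, which is processed from the RTL1 antisense transcript and had the highest mean level over the 8 libraries, just ahead of miR-381, differed by 0.01 ± 0.09. The 14 entries took a mean of 12.7% of listed reads in controls and 12.6% in LOS. In the large downstream cluster from miR-379 to miR-410, 28 of 67 entries were higher and 39 lower, with no call (median -0.03), 1 higher and 3 lower at an unadjusted p under 0.05, and 27.0% against 25.3% of reads. These 4 entries of 67 stand beside 57 of 439 (13%) over all miRNAs at that threshold.

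A few entries of the downstream cluster stood apart without passing. miR-299 stood at 221, 236, 213 and 241 CPM in controls and 179, 198, 120 and 128 CPM in LOS (-0.54 ± 0.16, adjusted p 0.236 by edgeR), while miR-299-3p differed by -0.07 ± 0.10. miR-411c-5p stood at 604, 496, 594 and 630.2 CPM in controls and 474, 473, 279.8 and 385 CPM in LOS (-0.53 ± 0.16), while miR-411c-3p differed by 0.12 ± 0.12. For both miR-299 and miR-411c-5p all LOS fetuses were below all controls, and LOS 3 and LOS 4 were the lowest. miR-495-5p, at 3.83 to 5.44 CPM in controls and 6.12 to 6.98 CPM in LOS, was the entry on the other side (0.48 ± 0.15, adjusted p 0.236).

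At the remaining imprinted loci, miR-483, which lies in an intron of the growth factor gene IGF2, stood at 142, 126, 155 and 148 CPM in controls and 171, 169, 234 and 218 CPM in LOS. The groups did not overlap, and LOS 3 and LOS 4 were highest (0.47 ± 0.13, adjusted p 0.236 by edgeR, 0.38 without LOS 3). miR-335 and miR-335-3p, from an intron of MEST, differed by -0.07 ± 0.12 and -0.00 ± 0.12.

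Among miRNAs with known roles in myoblasts, miR-26a had the largest difference in reads. It promotes myogenic differentiation, and it took a mean of 4.84% of listed reads in controls and 7.49% in LOS. It stood at 41658, 54254, 37438 and 58487 CPM in controls and at 67745, 64712, 103138 and 68335 CPM in LOS. All LOS fetuses were above all controls, and LOS 3 was far above the other LOS fetuses (0.66 ± 0.19, adjusted p 0.236 by edgeR, 0.48 without LOS 3). DESeq2 called it, with an adjusted p of 0.0238. miR-26b, which has the same seed, was lower, at 2635 to 3241 CPM in controls and 1978 to 2879 CPM in LOS (-0.28 ± 0.13), and its passenger miR-26b-3p was higher (0.50 ± 0.18). The groups overlapped for both.

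miR-27b, which targets Pax3 in muscle progenitors, stood at 16749, 17949, 14555 and 15985 CPM in controls and 13256, 14140, 12166 and 13514 CPM in LOS. All LOS fetuses were below all controls (-0.30 ± 0.08, adjusted p 0.236 by edgeR), and miR-27a-3p differed by -0.14 ± 0.08. miR-199b, a miRNA abundant in mesenchymal cells, stood at 1509, 1335, 1278 and 1485 CPM in controls and 1182, 928, 1003 and 835 CPM in LOS, again without overlap (-0.51 ± 0.12, adjusted p 0.177). The related miR-199a-3p, miR-199a-5p and miR-199c differed by -0.14 ± 0.09, -0.11 ± 0.12 and -0.13 ± 0.10. Over the 32 listed entries of the myoblast regulators, 17 were higher and 15 lower, with miR-125b the 1 call and a median of 0.01. These entries took 14.3% of reads in controls and 16.5% in LOS. The share of miR-26a alone rose by more than that, so the other entries together took a smaller share in LOS.

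No myomiR passed the test. Of 9 listed entries, 2 were higher and 7 lower, none passed even at an unadjusted p under 0.05, and the median was -0.15 against -0.01 over all miRNAs. They took 2.08% of reads in controls and 1.98% in LOS. miR-133a, the most abundant of them, stood at 16193, 14717, 14168 and 15160.3 CPM in controls and 14307, 15314, 13974 and 13276 CPM in LOS (-0.08 ± 0.07). miR-206, the myomiR of developing and regenerating fibres, stood at 701, 767, 944 and 749 CPM in controls and 636, 829, 554 and 804 CPM in LOS (-0.16 ± 0.15), and the groups overlapped for both. miR-1 differed by -0.28 ± 0.15, miR-133b by 0.13 ± 0.10, and miR-208b and miR-499, which lie in myosin heavy chain genes, by 0.13 ± 0.21 and -0.24 ± 0.17. Only miR-133a-5p, a passenger strand, had all LOS fetuses below all controls (53.1 to 55.6 against 43.5 to 52.4 CPM, -0.18 ± 0.10).

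**Figure D3:**
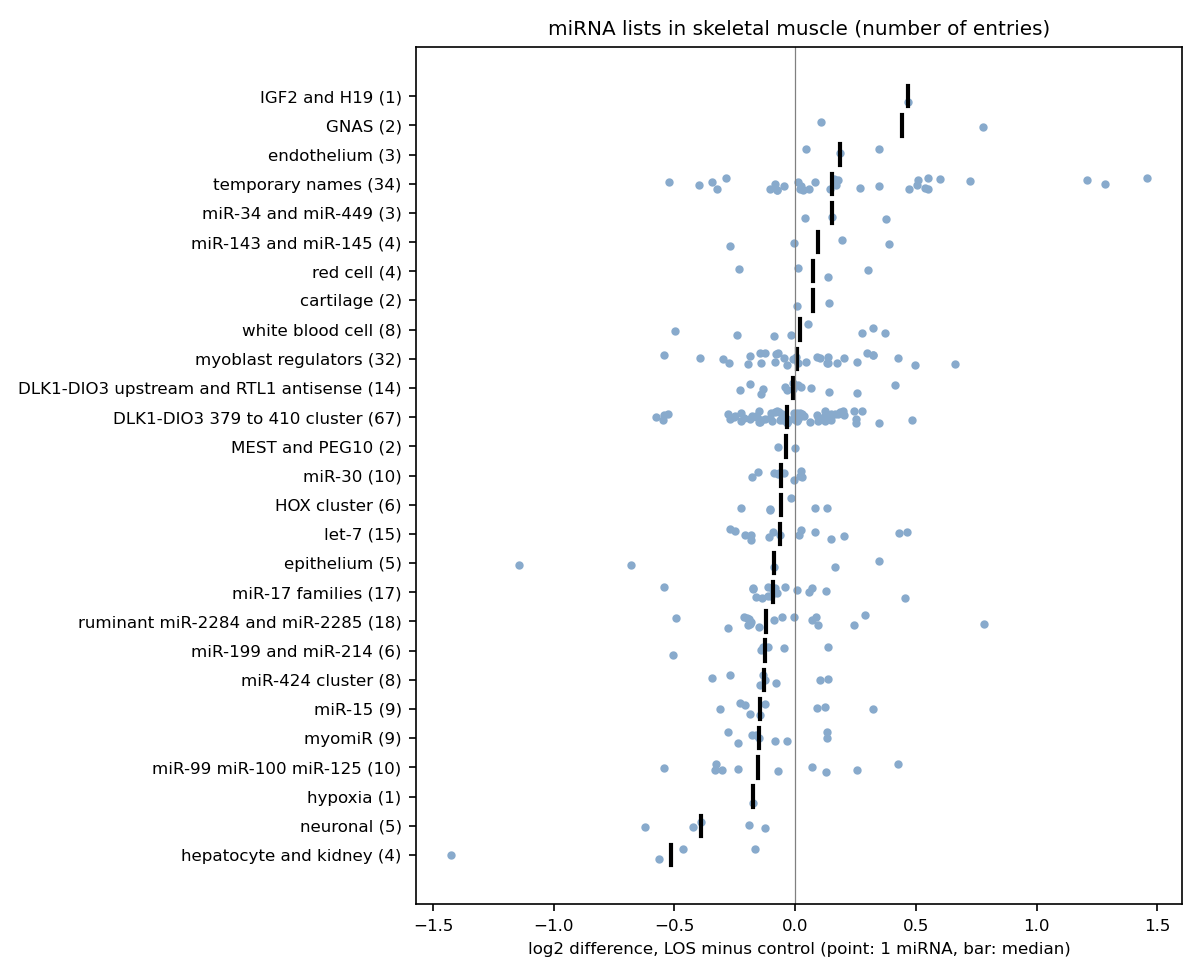
Each point is 1 listed miRNA of the list named on the y axis (number of entries in brackets), placed by its log2 difference LOS minus control (x axis), and black bars are list medians. Most medians lie within 0.2 of 0, the hepatocyte and kidney list is lowest at -0.51 (-0.24 without control 2), and the single IGF2 and H19 entry, miR-483, is at 0.47.

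Among families linked to growth and the cell cycle, none had a call by edgeR, and DESeq2 called miR-25 of the miR-17 families. The let-7 family, which represses growth and cell cycle genes, had 7 of 15 entries higher and 8 lower (median -0.06, 4.45% against 4.12% of reads). miR-98, an X-linked member, stood at 1639 to 2618 CPM in controls and 2229 to 3289.9 CPM in LOS (0.43 ± 0.18, adjusted p 0.365 by edgeR). At an unadjusted p under 0.05 the family had 1 higher and 2 lower entries, beside 57 of 439 (13%) over all miRNAs. The proliferation-linked miR-17 families had 5 of 17 higher and 12 lower (median -0.09). Of these, miR-25 was tight in both groups, at 2596, 2692, 2643 and 2703 CPM in controls and 2386, 2381, 2341 and 2306 CPM in LOS, and did not overlap (-0.18 ± 0.06, adjusted p 0.284). There were 2 lower and 1 higher at an unadjusted p under 0.05 in these families, beside the same 13% over all miRNAs. The miR-15 family had 3 of 9 higher and 6 lower (median -0.15), and the miR-424 cluster 2 of 8 higher and 6 lower (median -0.13). In the miR-424 cluster, miR-450a had means of 799.97 CPM in controls and 630.03 CPM in LOS (-0.34 ± 0.15, adjusted p 0.374).

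Lists of other cell types were also without calls by edgeR. DESeq2 called miR-194 of the hepatocyte and kidney list and miR-199b of the mesenchymal miR-199 and miR-214 list. All 3 endothelial entries were higher (median 0.19, and 2 of 3 with a median of 0.09 without LOS 4), led by miR-126-3p, the main miRNA of endothelial cells, at 1119, 1480.01, 1207 and 1691 CPM in controls and 1633, 1621, 1776 and 1966 CPM in LOS. Control 4 lay among the LOS values (0.35 ± 0.14, adjusted p 0.319 by edgeR). All 4 hepatocyte and kidney entries were lower (median -0.51), but without control 2 miR-215 was at 0.15 and the median at -0.24. The list holds miR-122 (-1.43 ± 0.60, adjusted p 0.365 by edgeR), miR-192, miR-194 and miR-215. All 5 neuronal entries were lower too (median -0.39), which also rested on control 2: without it miR-138 was at 0.22 and miR-9 at 0.59, and the median was -0.20. miR-383 stood at 27.6, 16.7, 19.03 and 13.1 CPM in controls and 8.57, 13.7, 14.9 and 13.3 CPM in LOS (-0.62 ± 0.25, adjusted p 0.349). The groups overlapped. Whether a change in the share of these cell types goes with the differences of other miRNAs was not tested.

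Further, less abundant miRNAs stood apart without passing. miR-326 stood at 25.2, 37.9, 37.2 and 37.9 CPM in controls and 44.9, 46.0, 77.4 and 65.3 CPM in LOS (0.75 ± 0.21), and miR-877 at 38.8, 30.4, 33.5 and 33.7 against 56.7, 39.5, 81.4 and 45.0 CPM (0.69 ± 0.22). Both were higher in every LOS fetus than in any control, and LOS 3 was highest in both. Without LOS 3 the differences were 0.59 and 0.46. miR-6123 stood at 255, 241, 180 and 220 CPM in controls and 304, 279, 476 and 301 CPM in LOS, with LOS 3 again highest (0.60 ± 0.18, and 0.39 without LOS 3).

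In the other direction, miR-185 stood at 7.99, 7.51, 6.17 and 6.93 CPM in controls and 4.90, 4.48, 4.88 and 4.98 CPM in LOS (-0.57 ± 0.15). miR-194 stood at 37.0, 54.4, 36.8 and 33.5 CPM in controls and 25.9, 29.2, 26.4 and 27.6 CPM in LOS (-0.57 ± 0.16, and -0.38 without control 2). Neither overlapped between groups. miR-224 (-0.34 ± 0.11) and miR-2285k (-0.49 ± 0.15) also lay below all controls in every LOS fetus. Each miRNA of these 2 paragraphs had an adjusted p of 0.236 by edgeR's quasi-likelihood test.

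The widest differences overlapped between groups and rested on few libraries. miR-338 stood at 39.5, 244, 17.3 and 62.3 CPM in controls and 13.5, 17.1, 24.2 and 15.945 CPM in LOS. Control 2 was the high value, and the difference of -2.37 ± 0.75 (adjusted p 0.236 by edgeR) was -1.17 without it. miR-temp60-5p stood at 34.2, 63.8, 29.3 and 63.6 CPM in controls and 87.4, 197, 116 and 62.8 CPM in LOS (1.28 ± 0.38, and 0.89 without LOS 2). miR-11972 stood at 3.30, 6.19, 2.29 and 3.83 CPM in controls and 13.9, 24.5, 4.44 and 5.98 CPM in LOS (1.71 ± 0.57, adjusted p 0.263, and 1.13 without LOS 2). Of the 34 entries with temporary names 24 were higher and 10 lower, with no call and a median of 0.15.

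The arms of a hairpin were then compared with each other, a test added after the differences of single arms had been seen and therefore no independent check of them. For the 88 precursors with both arms listed and a single source, the ratio of the more to the less abundant arm had a median of 9.32. The ratio was higher in LOS for 41 precursors and lower for 47, and the arms of 40 differed in opposite directions. By limma on the log2 ratio with Benjamini-Hochberg adjustment over the 88, 2 precursors (2.27%) passed, and 11 (12.5%) had groups that did not overlap. A shift common to both arms drops out of this ratio.

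For mir-296 the ratio of the 3p to the 5p arm rose. It was 12.3, 9.70, 11.2 and 9.60 in controls and 14.9, 18.7, 15.9 and 18.2 in LOS, with every LOS fetus above every control (log2 0.66 ± 0.13, adjusted p 0.0225 by limma). For mir-411c the ratio of the 5p to the 3p arm fell. It was 4.83, 4.75, 5.50 and 4.87 in controls and 3.73, 3.52, 2.63 and 2.76 in LOS, again without overlap (-0.67 ± 0.14, adjusted p 0.0225). The next precursors did not pass: mir-299 had ratios of 7.95 to 8.60 in controls and 9.84 to 13.4 in LOS (0.51 ± 0.13, adjusted p 0.0695), mir-154a 7.91 to 10.2 and 4.47 to 7.61 (-0.67 ± 0.18, 0.0708), and mir-665 45.2 to 60.8 and 67.3 to 75.6 (0.43 ± 0.12, 0.0708). Of the 5 leading precursors, all but mir-296 lie in DLK1-DIO3, as do 28 of the 88 tested (31.8%), and this was not tested. No ratio passed when control 2, control 3, LOS 3 or LOS 4 was left out, and 6 passed without LOS 2.

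**Figure D4:**
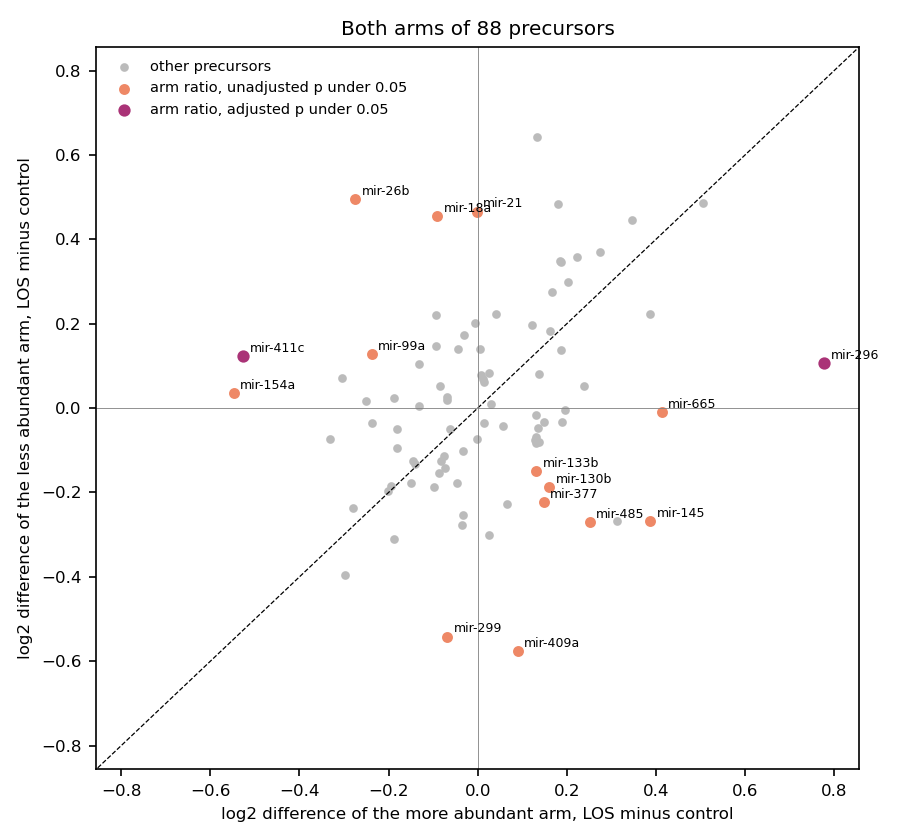
Each point is 1 of 88 precursors, with the log2 difference LOS minus control of its more abundant arm (x axis) and of its less abundant arm (y axis), and the dashed line marks equal differences. mir-296 and mir-411c, the 2 that passed, lie away from the line with differences of 0.78 against 0.11 and -0.53 against 0.12.

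LOS fetuses also differed more among themselves. The SD of log2 CPM between fetuses had a median of 0.161 in controls and 0.210 in LOS over the 439 miRNAs, and it was larger in LOS for 284 of them. The median ratio of the SDs was 1.25, and it ranged from 1.12 without LOS 3 to 1.44 without control 4. miRNAs of a library are not independent of each other, so these counts carry no test.

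The muscle differences were set against those of the libraries of the same numbers (control 1 to 4, LOS 1 to 4) in kidney, liver and tongue, a muscular organ. In the 374 miRNAs listed in all 4 tissues, the difference in LOS effect between muscle and another tissue was an interaction term in an edgeR quasi-likelihood fit that held the fetus number as a block. None differed between muscle and tongue (0%, lowest adjusted p 0.0850, 29 or 7.75% at an unadjusted p under 0.05) or between muscle and kidney (0%, lowest adjusted p 0.0596, 47 or 12.6% at an unadjusted p under 0.05). DESeq2 was not run for these comparisons. Against liver 14 differed (3.74%), 5 with a higher and 9 with a lower difference in muscle.

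The 3 called miRNAs were not shown to be particular to muscle. For miR-125b the difference between LOS and control, fitted in each tissue, was -0.55 ± 0.10 in muscle, -0.44 ± 0.13 in kidney, -0.25 ± 0.10 in tongue and 0.05 ± 0.14 in liver. For miR-296-3p it was 0.78 ± 0.14 in muscle, 0.29 ± 0.16 in kidney, 0.49 ± 0.21 in tongue and 0.32 ± 0.14 in liver, so above 0 in each. For miR-665 it was 0.41 ± 0.08 in muscle, 0.01 ± 0.13 in kidney, 0.26 ± 0.15 in tongue and -0.12 ± 0.06 in liver. The adjusted p of the 9 differences from muscle lay between 0.0880 for miR-665 against liver and 0.801 by edgeR.

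The clearest difference from liver was in let-7. The effect of let-7f in muscle minus that in liver was -0.77 ± 0.12 (adjusted p 0.000539 by edgeR), and let-7g, let-7c, let-7a-5p and let-7d differed by -0.75, -0.74, -0.65 and -0.51. In muscle alone let-7f stood at 9803, 10811, 10661 and 10812 CPM in controls and 9563, 10385, 8487 and 7984 CPM in LOS (-0.21 ± 0.09, adjusted p 0.374), while in liver its means were 7888 CPM in controls and 11755 CPM in LOS (0.58 ± 0.09, adjusted p 0.0520 in liver alone). miR-26a differed the other way, by 0.64 ± 0.16 against liver (adjusted p 0.0365) and 0.72 ± 0.16 against kidney (adjusted p 0.0596). Its mean level was 47959.5 CPM in muscle controls and 75983 CPM in muscle LOS, against 37989.7 and 38938 CPM in liver and 48365 and 45033 CPM in kidney. miR-199b (-0.76), miR-185 (-0.70) and miR-299 (-0.55) were also lower in muscle relative to liver. Without the fetus block 7 of the 14 were called, and miR-26a (adjusted p 0.157 by edgeR), miR-299 (0.101), let-7c (0.0838) and miR-185 (0.0550) were not. A fit of muscle and liver alone called none.

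**Figure D5:**
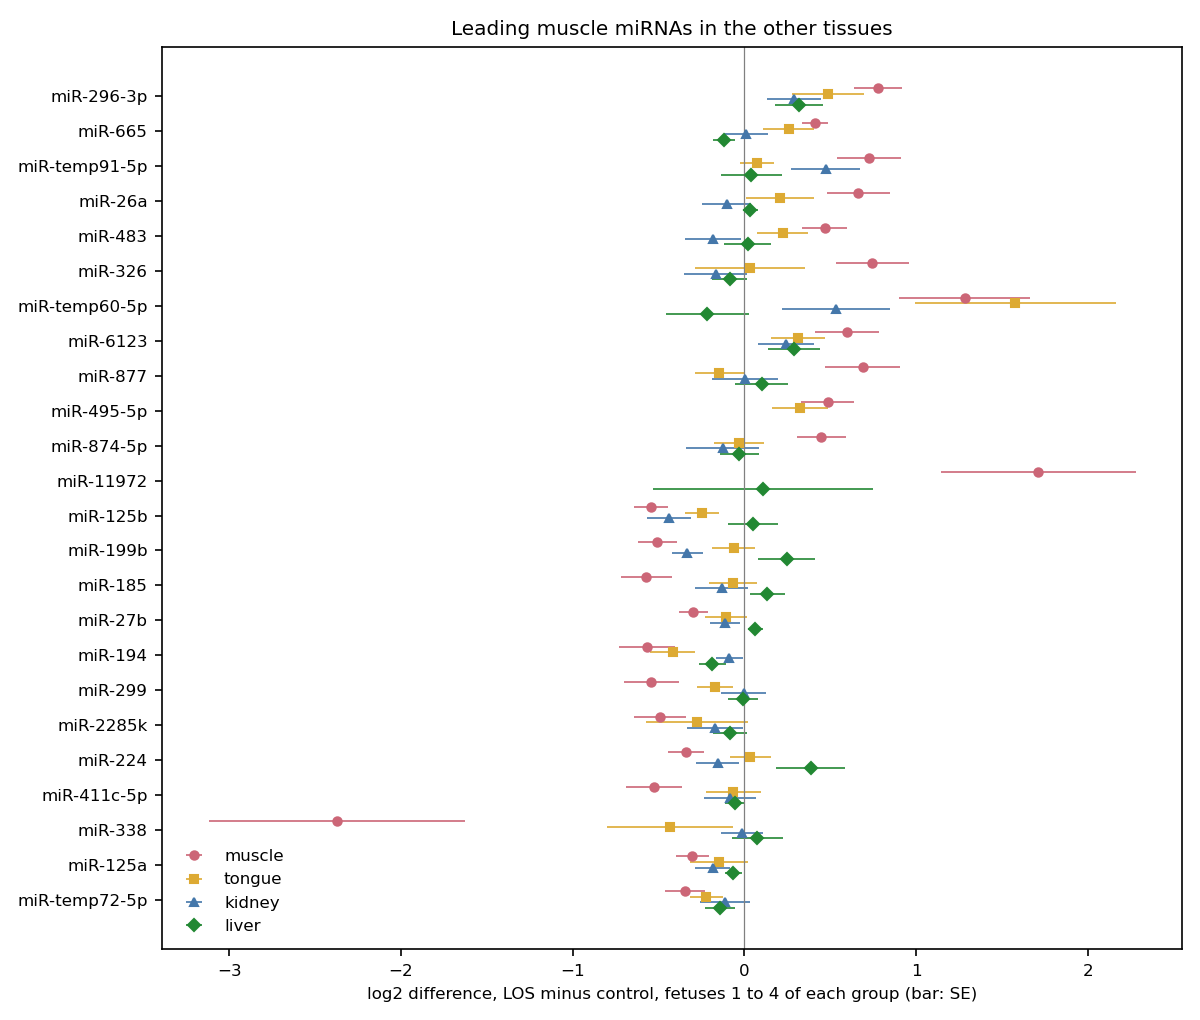
For the 12 leading miRNAs of muscle in each direction (y axis), symbols give the log2 difference LOS minus control (x axis) fitted in each tissue over fetuses 1 to 4 of each group, with SE bars, where the miRNA is listed. Muscle values were chosen as the most distinct ones and so lie farthest from 0 in most lines. Tongue lies on the same side of 0 as muscle for 20 of the 23 listed there, the exceptions being miR-877, miR-874-5p and miR-224. Kidney does so for 18 of 22 and liver for 13 of 23. The tissues carry the same fetus numbers and the share over all miRNAs was not taken, so these counts carry no test.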

How the data were processed

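The authors deposited 1 table per tissue of whole-number read counts per mature miRNA, not normalized. Bowtie and the build UMD3.1 are named without a role per the submitters' processing notes. For the counting tool, miRNA annotation and any filter, nothing is given in the sources used, and totals are of listed miRNAs only. Total RNA from frozen tissue went into a TruSeq small RNA library with gel selection, per the labels' protocols.

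From the counts, edgeR 4.0.16 in R 4.3.3 gave TMM factors, CPM and the quasi-likelihood test (glmQLFit with legacy=FALSE, filterByExpr, which kept all 439) for 4 LOS against 4 control libraries. The default of that edgeR version is legacy=TRUE, the older estimate. Calls are at a Benjamini-Hochberg adjusted p under 0.05. The SE is the log2 difference divided by the root of its F value. Arm ratios were tested with limma 3.58.1 (0.5 added to each arm). The differences between tissues were fitted over 32 libraries. DESeq2 1.42.0 and the other alternatives are described in the closing section. The tests were also run on simulated data as a check of the code, which lends no support to any call.

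Members and lists were chosen with earlier results of these data known. Named miRNAs were the 12 with the lowest p in each direction, the calls, the 5 most abundant, all listed myomiRs, the miR-99, miR-100 and miR-125 families, the GNAS, IGF2 and MEST entries, and relatives sharing a name with the first 24. Other miRNAs were named after their values were seen. The labels name no dams or processing days, so each p-value rests on the spread among numbered fetuses. Of the named entries, miR-temp72-5p is uncertain: in each muscle library its count lay within 10% of that of miR-1260b (correlation 0.98 or more), as it did for 3 further pairs of entries.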

Additional observations from a re-analysis of the deposited data

Results flagged for a closer look

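In 128 groups of 4 libraries examined, 1 library lay farther from its neighbours than the 95% critical value of Dixon's ratio in 11, and chance gives about 1 in 20 groups. LOS 3 was the library in 4 of them: miR-26a at 103100 CPM (the other LOS fetuses between 64710 and 68340), miR-6123 at 475.9 CPM (279.1 to 303.6), and, on the low side, miR-381 at 83680 CPM (103200 to 104900) and miR-495 at 767.2 CPM (958.7 to 997.9). LOS 1 was highest for miR-125b at 2637 CPM (2216 to 2236), so nearer to the controls than the other LOS fetuses. Among controls, control 1 was low for miR-326 at 25.2 CPM (37.19 to 37.91) and high for miR-127 at 128400 CPM (97440 to 99590) and miR-temp72-5p at 150.8 CPM (121 to 124.4). Control 2 was high for miR-194 at 54.41 CPM (33.53 to 37.01), control 3 low for miR-665 at 1024 CPM (1144 to 1168), and control 4 low for miR-411a at 79530 CPM (90540 to 91410).

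The LOS effect in muscle minus that in liver, tested with edgeR's quasi-likelihood interaction term, passed an adjusted p of 0.05 for 14 miRNAs. The 9 negative log2 values were -0.774 for let-7f, -0.748 for let-7g, -0.743 for let-7c, -0.654 for let-7a-5p, -0.508 for let-7d, -0.758 for miR-199b, -0.703 for miR-185, -0.546 for miR-299 and -2.01 for miR-338. The 5 positive ones were 0.748 for miR-4286, 0.65 for miR-26b-3p, 0.636 for miR-26a, 0.554 for miR-485-3p and 0.486 for miR-197.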

How the results depend on the processing

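The muscle comparison, with 3 calls by edgeR, gave 0 with library totals alone (48 at an unadjusted p under 0.05), upper-quartile scaling (53), the robust estimate (56), the older edgeR estimate (58) and limma-voom (58), and 17 by DESeq2, which left 128 adjusted p-values as NA. Leaving out 1 library gave 0 to 1 calls. Upper-quartile scaling, the list values with 1 library left out and all alternatives of the arm ratios were chosen after seeing the data, as was the older estimate for the tissue differences. With the replicate number as a block 0 were called (lowest adjusted p 0.180 by edgeR). The numbers do not pair muscle controls with LOS: the deviations of same-numbered fetuses correlated between -0.33 and 0.15. Across tissues the same fetus number had median correlations of 0.165 with kidney, 0.191 with liver and 0.163 with tongue (lowest -0.199), with 6, 6 and 5 of 8 libraries closest to their own number. For the tissue differences with no replicate block, 7 miRNAs differed from liver, and a fit of muscle and liver alone called 0. Leaving out 1 fetus, with its libraries in all 4 tissues, gave 3 to 30 calls against liver, 0 to 4 against kidney and 0 to 3 against tongue. Without LOS 2 these were 30, 4 and 3. let-7a-5p, let-7f and let-7g were called in 11 of 12 alternatives, and miR-26a in 5. The 2 arm-ratio calls were 3 with the replicate block and 0 to 6 with 1 library left out. The median SD ratio was 1.12 to 1.44.

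Of the single values, 1139 kept direction and side of the threshold, 49 lost a call, 12 gained one (all in DESeq2) and 28 changed sign. Those that changed sign were miR-127 (-0.0096 with library totals, -0.022 to -0.00068 with 1 library left out), miR-335-3p (0.010 with RLE or DESeq2, 0.0015 with the CPM floor, 0.0065 without the top 3, -0.088 to 0.092 with 1 library left out) and miR-665-5p (0.0014 with RLE, 0.00026 with DESeq2, 0.0099 to 0.035 with 1 left out). With 1 library left out the ranges were -0.0037 to 0.28 for miR-208b, 0.08 to 0.12 in the 2 sign changes of miR-499-3p, -0.12 to 0.20 for miR-125a-3p, -0.067 to 0.23 for miR-296-5p and -0.27 to 0.016 for miR-411a-3p. The causes were not tested. Entries under 10 mean CPM (62 of 439) have the least precision from counting.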

Other observations

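In control 2, miR-338 stood with other miRNAs that were higher there than in any other muscle library. miR-182 was at 188 CPM in control 2 against 22.4 to 62.8 CPM in the other 7 libraries, miR-183 at 43.5 against 2.62 to 10.4 CPM, miR-9 at 141 against 27.5 to 112 CPM and miR-215 at 61.9 against 10.7 to 35.5 CPM. miR-182 and miR-183 are miRNAs of sensory and epithelial cells, and miR-9 is a miRNA of the nervous system. The other entries of the epithelial and neuronal lists were mixed. miR-138 and miR-218 were also highest in control 2, but miR-141, miR-205, miR-375, miR-129-5p and miR-383 were not. Whether control 2 held more of any cell type was not tested.

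In LOS 2, miR-temp9-3p stood at 95.8 CPM against 12.5 to 32.2 CPM in the other libraries, miR-temp13-3p at 49.5 against 6.70 to 26.4 CPM, and miR-12034 at 8.49 against 1.94 to 5.21 CPM. These miRNAs were picked for their values, and no test is attached to them.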
